A study of Brassica napus with 30 samples.

Results

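Among 4159 transcripts of germinating oilseed rape (Brassica napus) that were present at a mean level of at least 20 CPM (read counts scaled to a common library total) in every group of the study, the 100 with the smallest spread over all 30 libraries are described here. The spread was the standard deviation (SD) of log2 CPM after composition scaling with TMM factors, and it was taken over dry and imbibed seeds, both temperatures and both genotypes at once. The 100 are 2.4% of the 4159, which are themselves 4.12% of the 100919 gene models in the deposited count table. The choice thus used every library, and any small difference between groups among the 100 follows from it. They are described as measured, and only lists chosen in one genotype and read in the other are used to ask how far steadiness carried over.

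A reference transcript is one whose level serves as a ruler for others, as in quantitative PCR, where the target is divided by the reference. It has to be present at a similar level in all samples compared. Germinating seeds are a difficult case, because dry seeds hold stored messenger RNA laid down during maturation, and water uptake brings its turnover and new transcription. A CPM value here is a share of the counted reads of a library after correction by its TMM factor, and thus a relative level. A steady scaled level is therefore neither a steady share of the reads nor a steady amount per seed. In whole seeds fewer cells of a type and less RNA per cell cannot be told apart.

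The seeds were of genotypes JY1621 and JY1605, taken dry (zeitgeber time 0), after 8 h of germination (zeitgeber time 8) and after 36 h (zeitgeber time 12), the imbibed seeds at 8 °C or 25 °C. This gave 10 groups of 3 libraries, each from 100 seeds, so that a change with sampling time is also one with time of day. No transgene, mutation or chemical treatment is named for any group. Libraries of one group are labelled as biological replicates. No source used here says whether their seeds were of separate lots, so the spread between them may be partly technical. B. napus carries an A and a C subgenome with near-identical gene pairs, and the sources do not say where a read that fits both copies was counted, so levels of single copies are uncertain in this respect. None of the gene IDs (0 of 100919) matched the RefSeq gene table used here, so the transcripts are given by ID, the chromosome being read from the ID, and neither functions, the seed's marker genes nor the usual reference genes could be looked up.

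The libraries held between 14250480 and 78251632 counts. The deepest was replicate 1 of the 25 °C seeds of JY1621 at 36 h, and the next had 35172867. Within groups, log2 CPM correlated at 0.972 to 0.99 (Pearson). Each of the 100 transcripts had at least 193 counts in every library. At this depth the counting error of a transcript had a median of 0.0549 on the log2 scale and at most 0.0679, a median of 28.1% of its SD, so that most of the spread described below lies above counting error. That error covers counting only, since reads are not independent molecules.

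The steadiest of all was BnaC03G0535100ZS, on chromosome C03, with an SD of 0.123 log2 units and a mean of 29.9 CPM. In JY1621 it stood at 33.6, 35 and 34.9 CPM in dry seeds, 29.9, 29.1 and 27.7 in 8 h seeds kept at 8 °C, 26.6, 29.7 and 26.2 in 8 h seeds kept at 25 °C, 29.4, 27.1 and 30.4 in 36 h seeds kept at 8 °C, and 34.1, 30.2 and 35.1 in 36 h seeds kept at 25 °C. In JY1605 it stood at 32.1, 32 and 30.4 CPM in dry seeds, 31.4, 30.2 and 29.4 in 8 h seeds kept at 8 °C, 30.1, 28.6 and 27.2 in 8 h seeds kept at 25 °C, 28.5, 28 and 29.1 in 36 h seeds kept at 8 °C, and 27.9, 27.4 and 26.2 in 36 h seeds kept at 25 °C. The highest library held 1.34 times the CPM of the lowest. Dry seeds of JY1621 were highest and 36 h seeds of JY1605 at 25 °C lowest by group mean, at 34.5 ± 0.795 and 27.2 ± 0.878 CPM (SD, n = 3), a 1.27-fold range.

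BnaC03G0387000ZS, on the same chromosome, came next with an SD of 0.126 and a mean of 29.6 CPM. Its JY1621 libraries held 29.1, 27.4 and 30.2 CPM in dry seeds, 29.1, 25.7 and 29.7 in 8 h seeds kept at 8 °C, 27.6, 29.3 and 31.7 in 8 h seeds kept at 25 °C, 27.4, 28.3 and 28.2 in 36 h seeds kept at 8 °C, and 32.3, 34.7 and 31.5 in 36 h seeds kept at 25 °C. Its JY1605 libraries held 31.9, 30.9 and 31.7 CPM in dry seeds, 30.9, 30.1 and 35 in 8 h seeds kept at 8 °C, 25.3, 29.7 and 31.2 in 8 h seeds kept at 25 °C, 25.5, 31.2 and 30.7 in 36 h seeds kept at 8 °C, and 25.9, 25.2 and 29.2 in 36 h seeds kept at 25 °C. Most groups overlapped, and differences between group means made up 51.6% of its variance, the least of the 100. BnaC09G0261700ZS on C09 (SD 0.143, mean 27.9 CPM) and BnaA09G0678900ZS on A09 (SD 0.147, mean 41.0 CPM) followed. Between group means, BnaC09G0261700ZS ranged over 1.26-fold and BnaA09G0678900ZS over 1.29-fold. Of 12 other ways of scaling, setting the floor, measuring spread or choosing libraries, BnaC03G0535100ZS, BnaC03G0387000ZS and BnaA09G0678900ZS were again among the 100 steadiest in 10, and BnaC09G0261700ZS in 9. None of them could pass a floor of 50 CPM, and with library size scaling only BnaC03G0535100ZS was kept. BnaC03G0535100ZS and BnaC09G0261700ZS were not chosen in JY1621 alone. All 12 ways rank the same libraries or part of them, so these counts describe the choice. Of the 100, 0 were kept in all 12, since those chosen in each genotype alone all fell under 50 CPM in some group. In all of 7 ways that changed scaling (other than to library size), filtering, prior count or the measure of spread, 29 were kept.

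**Figure D1:**
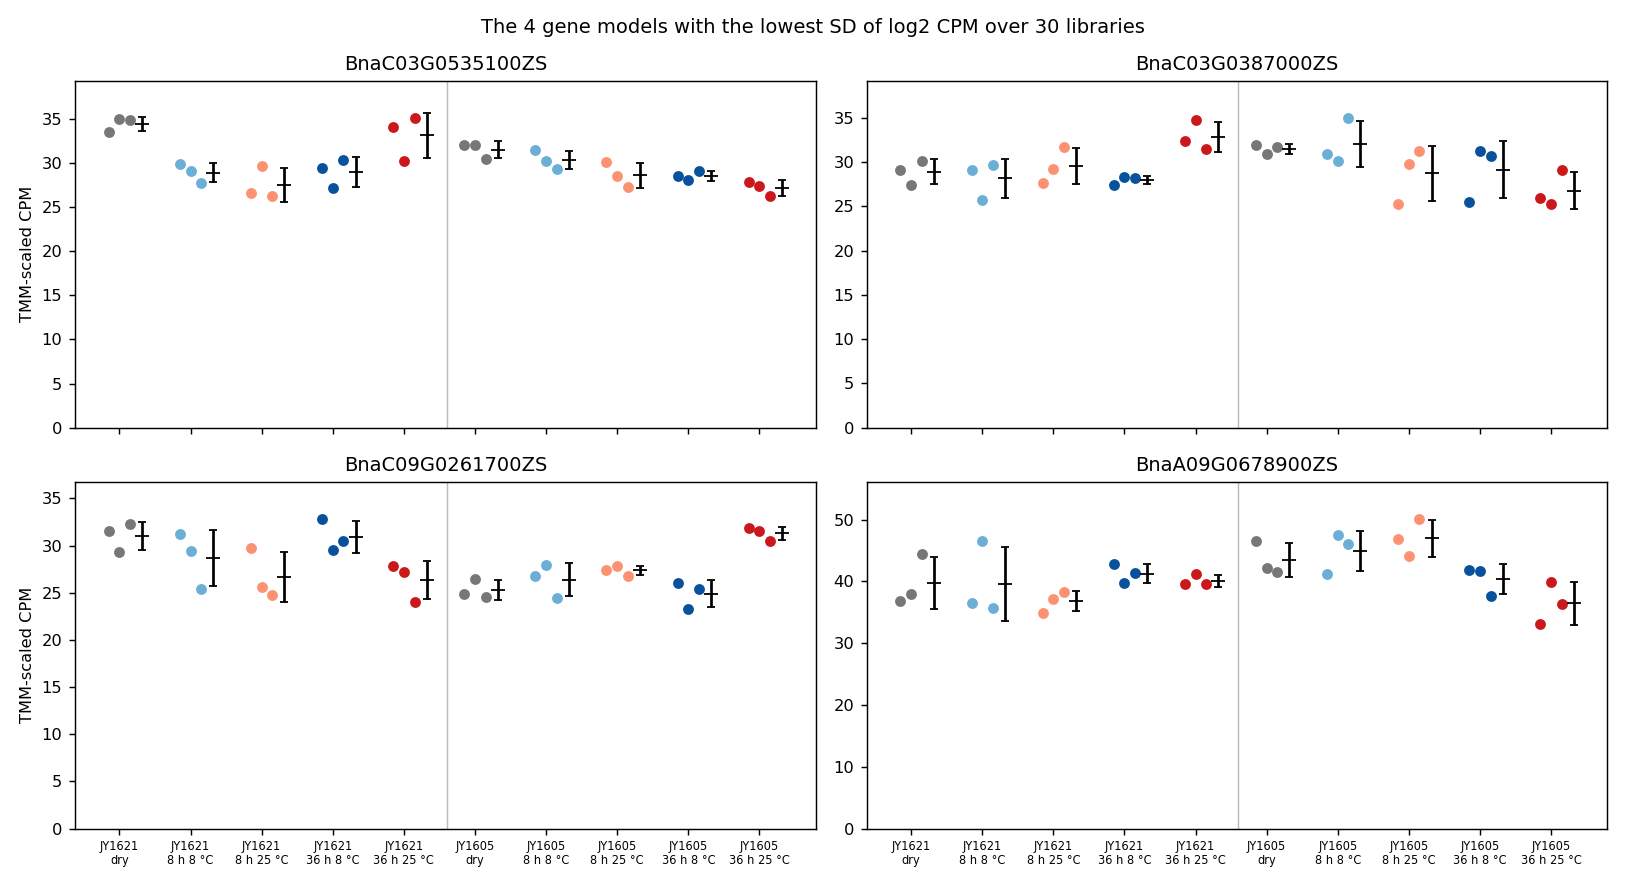
TMM-scaled CPM (vertical axis, from 0) of the 4 transcripts with the lowest SD in each library (points) of the 10 groups (horizontal axis, JY1621 left of the line, JY1605 right of it), with the group mean and SD (black bar, n = 3). Each of the 4 stays within a 1.52-fold range over the 30 libraries, and all group means of BnaC03G0535100ZS lie between 27.2 and 34.5 CPM.

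Over all 100, SDs ran from 0.123 to 0.219, with a median of 0.197, against a median of 0.542 among the 4159 transcripts at the floor. Between the lowest and the highest of the 10 group means, the 100 differed by a median of 1.48-fold and at most 1.71-fold, and between the lowest and the highest library by a median of 1.68-fold and at most 2.01-fold. Among the 4159, the median range of group means was 3.16-fold, and 578 (13.9%) kept within 2-fold. The edge of the list is not a break. The last 2 transcripts inside it, BnaC01G0062600ZS and BnaC09G0065400ZS, had SDs of 0.2185 and 0.2188, and the first 2 outside, BnaC03G0347500ZS and BnaC03G0758300ZS, had 0.2191 and 0.2192.

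The 100 were mostly of low abundance among the 4159. Their mean levels ran from 23.5 to 266 CPM with a median of 36.3 CPM, against a median of 67 CPM among the 4159. Of the 100, 3 averaged at least 100 CPM, as did 28.1% of the 4159. The most abundant was BnaC06G0204000ZS on C06, whose group means in JY1621 were 260 ± 22.9 CPM in dry seeds, 241 ± 2.48 in 8 h seeds kept at 8 °C, 235 ± 19.8 in 8 h seeds kept at 25 °C, 315 ± 17.8 in 36 h seeds kept at 8 °C and 271 ± 18.1 in 36 h seeds kept at 25 °C (SD, n = 3). In JY1605 they were 220 ± 16.7, 237 ± 19.2, 272 ± 27.7, 336 ± 14.7 and 273 ± 20.4 CPM in the same order. It was highest at 36 h and 8 °C in both genotypes. The least abundant, BnaA05G0102200ZS on A05, had group means between 20.1 and 29 CPM, close to the floor of 20 that the choice set. None of the 100 (0) was among the 100 most abundant transcripts of dry seeds, whose SDs had a median of 2.50 and were at least 0.995.

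**Figure D2:**
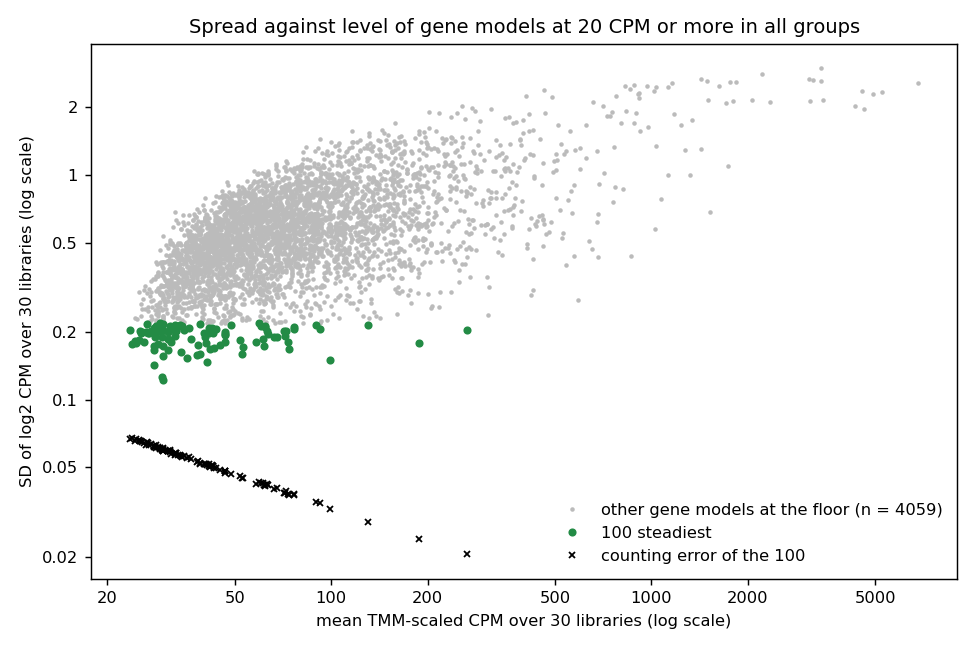
SD of log2 CPM over 30 libraries (vertical axis, log scale) against mean TMM-scaled CPM (horizontal axis, log scale) for the 4159 transcripts at or above 20 CPM in all groups, the 100 steadiest in green, with the counting error of each of the 100 as a cross. The 100 form the lower edge, with SDs up to 0.219 and mostly low levels, and the crosses lie below them, at no more than 0.0679.

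What variation the 100 had was still mostly between groups. Differences between the 10 group means made up a median of 83.1% of a transcript's variance over the libraries, against 97.6% among the 4159. The SD within groups had a median of 0.0944 among the 100 and 0.101 among the 4159. Within one genotype, the 100 had a median SD of 0.177 over the JY1621 libraries and 0.193 over the JY1605 libraries, and 59 were steadier in JY1621. By the pattern of deviations over the 100 transcripts, each of the 30 libraries correlated best with a library of its own group (30 of 30). The first 3 components of these deviations held 20.1%, 17.4% and 13.2% of their variance.

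The 100 had their highest group mean most often in 36 h seeds of JY1621 at 25 °C, with 27 transcripts, followed by 18 in JY1605 in 8 h seeds kept at 8 °C and 14 in dry JY1605 seeds. Their lowest was most often in JY1621 in 8 h seeds kept at 8 °C, with 20 transcripts, and in JY1605 in 36 h seeds kept at 25 °C, with 17. The median deviation of the 100 from their own means was 0.14 log2 units in JY1621 at 36 h and 25 °C and -0.06 in JY1605 there. It was -0.11 in JY1621 and 0.09 in JY1605 in 8 h seeds kept at 8 °C. Between genotypes the median log2 fold change of the 100 was -0.19 in 8 h seeds kept at 8 °C and 0.19 in 36 h seeds kept at 25 °C (JY1621 over JY1605, edgeR). Over all tested gene models the medians were 0 and -0.13. Scaled by library size alone, the median log2 CPM difference of the 100 in 8 h seeds kept at 8 °C was 0.01 in place of -0.19, and in 36 h seeds kept at 25 °C 0.12 in place of 0.18. Over all tested gene models the medians on that scale were 0.17 and -0.19.

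**Figure D3:**
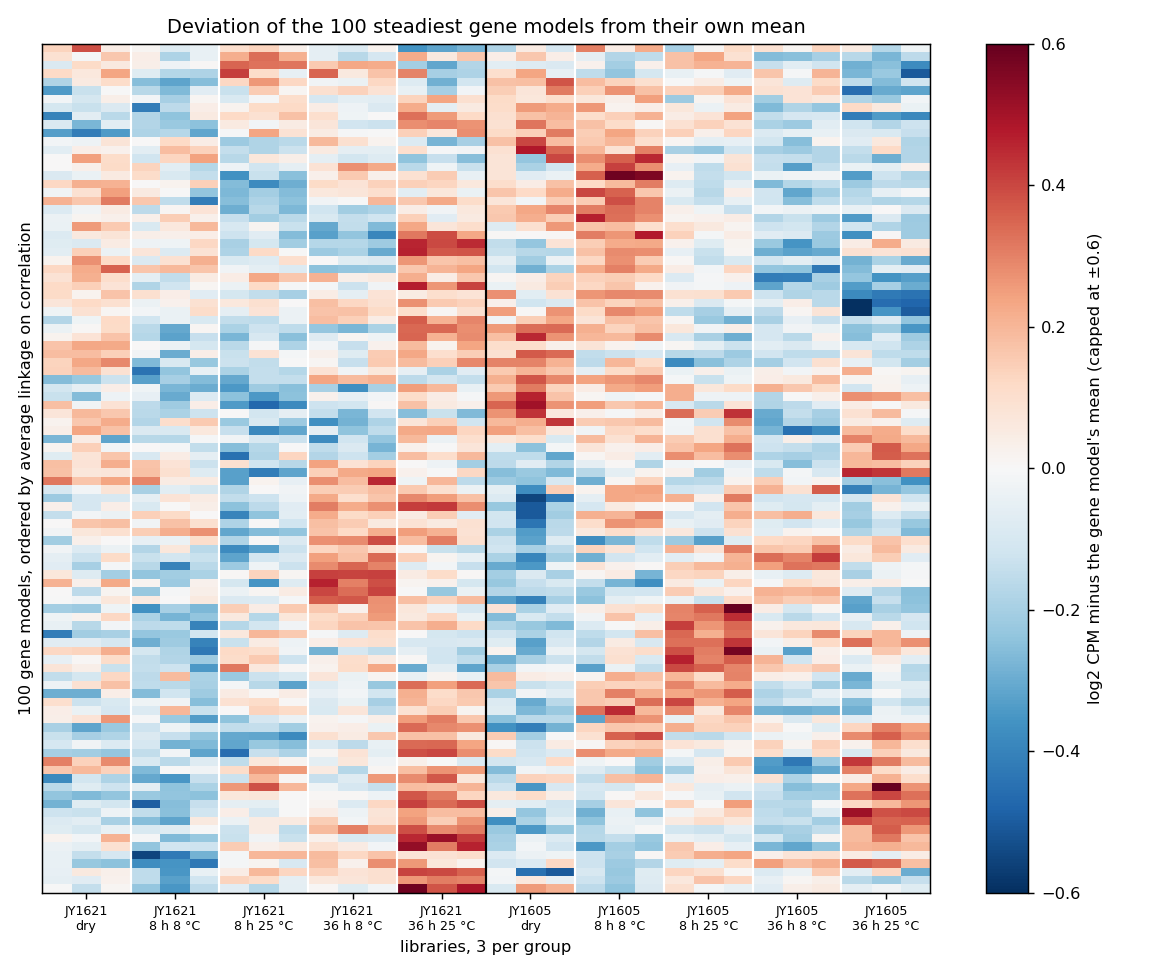
Log2 CPM of the 100 steadiest transcripts (down the page, ordered by average linkage on correlation) in 30 libraries (columns, 3 per group, JY1621 left of the black line) minus each transcript's own mean, capped at 0.6 either way. The columns of JY1621 at 36 h and 25 °C, where 27 transcripts have their highest group mean, are often red.

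The study set 8 °C beside 25 °C in search of genes of germination that depend on temperature. None of the 100 (0) was called between temperatures in an edgeR quasi-likelihood fit of all 30 libraries (adjusted p under 0.05 and a log2 fold change of at least 1), where 33.3% of 57945 tested gene models were called in JY1621 and 41.3% in JY1605 after 8 h, and 34.5% and 61.4% after 36 h. Among the transcripts at the floor, 27.5% and 28.7% were called after 8 h and 20.7% and 43.6% after 36 h. The choice by a small SD leads to this, and nothing is read from it. By unadjusted p under 0.05 alone, 49 of the 100 passed in JY1621 and 50 in JY1605 after 8 h, where 62.4% and 66.5% of all tested did. After 36 h, 60 passed in JY1621 and 50 in JY1605, where 67.3% and 82.7% did. DESeq2's Wald test also called 0, and library size scaling called 1, in JY1605 after 8 h. The share of all tested called was counted neither with DESeq2's test nor with library size scaling. At 36 h the 8 °C minus 25 °C differences in log2 CPM ran from -0.64 to 0.47 in JY1621 and from -0.64 to 0.52 in JY1605, with medians of -0.10 and 0.01.

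Libraries of the 2 temperatures did not overlap for part of the list. At 36 h the 3 libraries at 8 °C lay all above those at 25 °C for 23 of the 100 in JY1621 and all below for 41, where 33% and 35.8% of all tested gene models did so. In JY1605 it was 27 above and 27 below, against 40% and 43.7%. Both genotypes had the 8 °C libraries above for 10 transcripts and below for 16 (24.5% and 27.4% of all tested), and 10 went opposite ways (7.69%). At 8 h, 18 were above and 30 below in JY1621 (31.2% and 30.9% of all tested), and 30 above and 27 below in JY1605 (31.4% and 36.1%). Of these, 11 were above and 17 below in both genotypes (22.9% and 24.2%), and 1 went opposite ways (2.65%). These separations are of libraries the choice used and are given as counts only.

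The 2 transcripts of the 100 with the largest 8 °C minus 25 °C difference at 36 h, averaged over the genotypes, were BnaA09G0110800ZS and BnaA10G0202200ZS. BnaA09G0110800ZS held 68.1, 65 and 68.4 CPM at 8 °C against 51.6, 44 and 50.2 CPM at 25 °C in JY1621, and 59.7, 59.3 and 60.1 against 48.9, 45.6 and 43.4 CPM in JY1605. The 8 °C libraries were the higher ones in both genotypes without overlap, by 0.47 and 0.38 on the log2 scale. Its dry-seed means were 50 ± 3.32 CPM in JY1621 and 46.2 ± 0.447 CPM in JY1605 (SD, n = 3), near the 36 h level at 25 °C. BnaA10G0202200ZS held 51, 53.3 and 51.4 CPM at 8 °C against 39.6, 41.4 and 38 CPM at 25 °C in JY1621, and 49.7, 52.4 and 52.1 against 37.8, 40.9 and 41.5 CPM in JY1605. Its differences were 0.39 and 0.36.

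At the other end stood BnaA06G0154600ZS and BnaC04G0473800ZS. BnaA06G0154600ZS held 28.7, 29.2 and 27 CPM at 36 h and 8 °C against 46, 43.1 and 43.4 CPM at 25 °C in JY1621, and 27.2, 26.7 and 27 against 35.5, 35.3 and 35.6 CPM in JY1605, differences of -0.64 and -0.40. BnaC04G0473800ZS held 54.8, 54.6 and 53.2 CPM against 84.6, 81 and 83.9 CPM in JY1621, and 52.8, 48.2 and 52.8 against 63.6, 71.9 and 63.9 CPM in JY1605, differences of -0.62 and -0.37. After 8 h the 8 °C mean was the higher one for both. BnaA06G0154600ZS averaged 34 ± 2.15 CPM at 8 °C and 33 ± 3.45 CPM at 25 °C in JY1621, within its spread, and 39.6 ± 1.67 and 32.1 ± 1.59 CPM in JY1605 (SD, n = 3). BnaC04G0473800ZS averaged 62.7 ± 3.92 CPM at 8 °C and 54.8 ± 2.19 CPM at 25 °C in JY1621, and 70.8 ± 2.13 and 61.2 ± 2.28 CPM in JY1605. The same 2 transcripts formed the pair with the steadiest ratio of all 4950 pairs among the 100, the CPM of BnaC04G0473800ZS over that of BnaA06G0154600ZS keeping between 1.57 and 2.2 over the 30 libraries with an SD of 0.102 (log2). Such a ratio within a library does not depend on the scaling between libraries. The median pair had a ratio SD of 0.249, above the median SD of single transcripts, 0.197, and the loosest pair 0.384.

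Between genotypes 0 of the 100 were called in any of 5 conditions. For JY1621 over JY1605, the calls covered 20.3% of all tested in dry seeds and 5.67% of the transcripts at the floor, 21% and 5.63% in the 8 h seeds at 8 °C, and 24.5% and 4.66% in those at 25 °C. In the 36 h seeds they covered 24.9% and 4.62% at 8 °C, and 48.1% and 22.9% at 25 °C. By unadjusted p under 0.05, 44 of the 100 passed in dry seeds, 54 and 45 in the 8 h seeds at 8 °C and 25 °C, and 41 and 67 in the 36 h seeds, where 47.8%, 48.7%, 55.1%, 55% and 77.2% of all tested did.

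Against dry seeds, too, 0 of the 100 were called. In JY1621 the calls covered 6.49% of all tested and 0.793% of the transcripts at the floor for the 8 h seeds at 8 °C, 41.6% and 33.6% for those at 25 °C, 47.6% and 40.1% for the 36 h seeds at 8 °C, and 46.2% and 25.8% for those at 25 °C. In JY1605 the same 4 comparisons called 3.4% and 1.64%, 45.4% and 35.2%, 50.2% and 39.6%, and 61.4% and 36.5%. By unadjusted p under 0.05, 32, 46, 50 and 52 of the 100 passed in JY1621, where 30.7%, 67.6%, 71.7% and 71.9% of all tested did. In JY1605 42, 54, 55 and 70 passed, where 25.4%, 68.4%, 71.5% and 81.2% did. These zeros follow from the choice on the TMM scale. DESeq2's Wald test gave 0 in each comparison as well, but scaling by library size alone did not. With it, 6 of the 100 were called in JY1621 for the 36 h seeds at 25 °C against dry seeds, and in JY1605 18 for the 8 h seeds at 25 °C, 3 for the 36 h seeds at 8 °C and 9 for those at 25 °C. The share of all tested called was counted neither with DESeq2's test nor with library size scaling. The median over all gene models shifts with the latter, as given below. These counts are therefore not read as particular to the 100. The farthest single log2 fold change of the 100 in any comparison was 0.71, between JY1621 and JY1605 in the 36 h seeds at 25 °C.

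What the 100 took of a library depended on the stage before composition scaling and little after it. The choice by a small SD on the TMM scale leads to the latter. As a share of all counts they held 0.373% ± 0.0123 in dry seeds of JY1621, 0.403% ± 0.00765 and 0.502% ± 0.00977 in 8 h seeds kept at 8 °C and 25 °C, and 0.547% ± 0.00859 and 0.573% ± 0.0101 after 36 h (SD, n = 3). In JY1605 they held 0.341% ± 0.00156 in dry seeds, 0.392% ± 0.00235 and 0.568% ± 0.0162 in 8 h seeds kept at 8 °C and 25 °C, and 0.496% ± 0.0128 and 0.535% ± 0.013 after 36 h. The dry and cold 8 h seeds held the least in both genotypes, without overlap with the other stages. After scaling, the summed level was between 4379 and 5076 CPM in the 10 group means, and lowest in JY1621 in 8 h seeds kept at 8 °C. The TMM factors that lie between the 2 views ran from 0.732 in a dry JY1605 library to 1.19 in a 36 h JY1605 library at 25 °C.

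**Figure D4:**
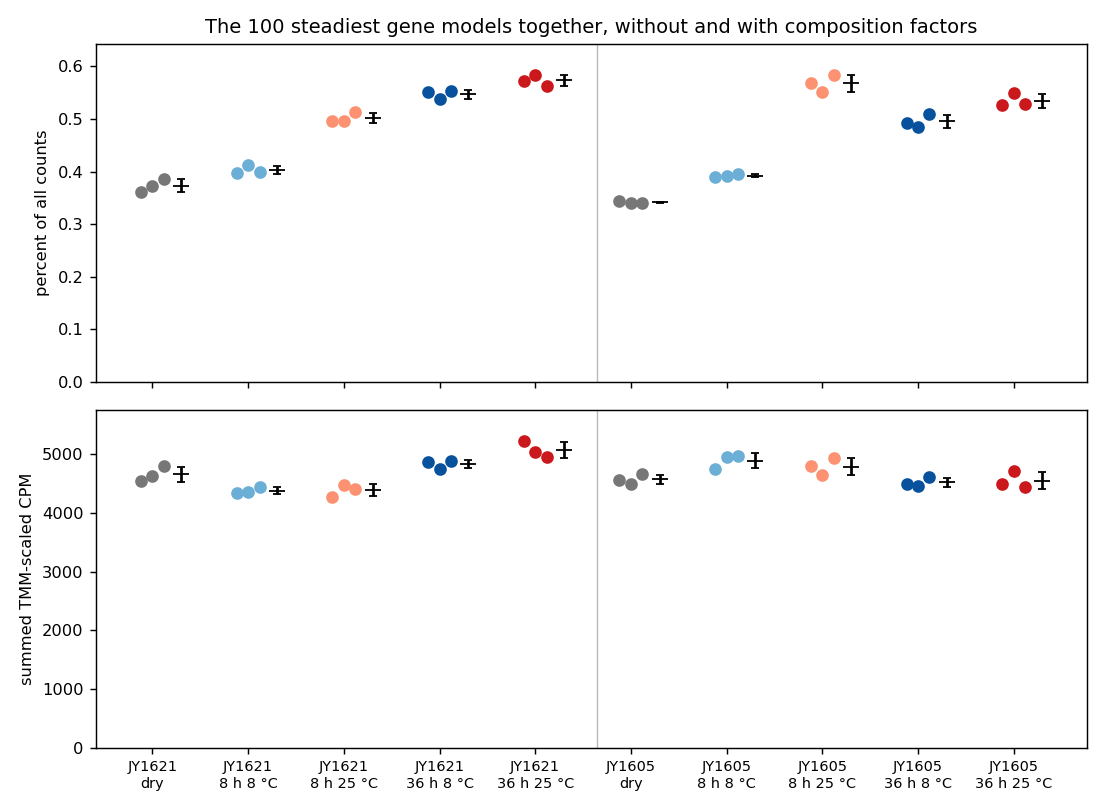
The 100 steadiest transcripts together in each library (points) with group mean and SD (black bars, n = 3), as percent of all counts (top) and as summed TMM-scaled CPM (bottom), both axes from 0. The share of counts is lowest in dry seeds (0.373% and 0.341% in JY1621 and JY1605) and in 8 h seeds kept at 8 °C, while the group means of the summed CPM stay between 4379 and 5076. The choice on the TMM scale leads to the latter.

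Scaling by library size alone gave a different list. With it, 13 of the 100 were again among the 100 steadiest, and the SDs of the 100 had a median of 0.321 in place of 0.197. Of the 100 steadiest under library size scaling, 91 stood at the floor under TMM, with a median SD there of 0.307. After 8 h at 25 °C against dry seeds, the median over all gene models shifted with library size scaling by 0.50 in JY1621 and 0.65 in JY1605 (log2), and at 36 h against dry seeds by 0.48 to 0.63. The 100 stood 0.43 and 0.73 above dry seeds in 8 h seeds kept at 25 °C on that scale and -0.09 and 0.07 under TMM. DESeq2's size factors kept 89 of the 100 and upper-quartile factors 84.

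As a ruler in place of TMM, the geometric mean of the 100 placed the libraries within -0.11 to 0.15 log2 units of TMM, with an SD of 0.0714. The 3 steadiest alone gave an SD of 0.0661 and the single steadiest one of 0.123. The deepest library, replicate 1 of JY1621 at 36 h and 25 °C, was the one at 0.15. Replicates 2 and 3 of that group, with 17446793 and 19800695 counts, stood at 0.11 and 0.08. This closeness describes the choice, since the 100 were picked on the TMM scale.

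Every chromosome held at least 1 of the 100, and unplaced scaffolds held 0, as of the 4159. Of the 100, 38 were on the A and 62 on the C subgenome, where 47.4% and 52.6% of the 4159 were. C07 and C09 held 13 each, of 217 and 319 transcripts at the floor, A03 and C03 held 9 each, and A01, A02 and C08 held 1 each. With a wider list the lean to C was smaller, at 58% of the 200 steadiest, 54.6% of 500 and 55.7% of 1000. The same rule in JY1605 alone gave 59 on A and 41 on C, a lean to A, and in JY1621 alone 46 and 54. The lean to C thus depended on the libraries used for the choice. Apart from BnaC09G0261300ZS and BnaC09G0261700ZS, 4 gene models apart on C09, no 2 of the 100 were within 10 gene models of each other. How many such pairs other lists of 100 would hold was not counted, so nothing is read from this.

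Whether steadiness in one genotype holds in the other was asked with libraries the choice had not used. The same rule applied to the 15 libraries of JY1605 alone, with their own TMM factors, gave 100 transcripts with SDs up to 0.165 and a median of 0.139. Read in JY1621, their median SD was 0.255, with quartiles of 0.195 and 0.343, against a median of 0.464 for the 4688 transcripts at the floor in JY1605 that were also tested in JY1621. The converse list, chosen in JY1621 with a median SD of 0.129, had a median of 0.304 in JY1605, with quartiles of 0.219 and 0.420, against 0.615 for 5857. In each direction 92 of the 100 lay below the median of the transcripts at the floor. The level carried over less fully. Of the JY1605 list, 76 of 100 also reached the floor in every group of JY1621. Of the JY1621 list, 73 of 100 did so in JY1605, and the rest of each list fell below the floor in some group there. The lists shared 6 transcripts with each other, and 27 (JY1605) and 26 (JY1621) with the 100 chosen over all libraries.

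**Figure D5:**
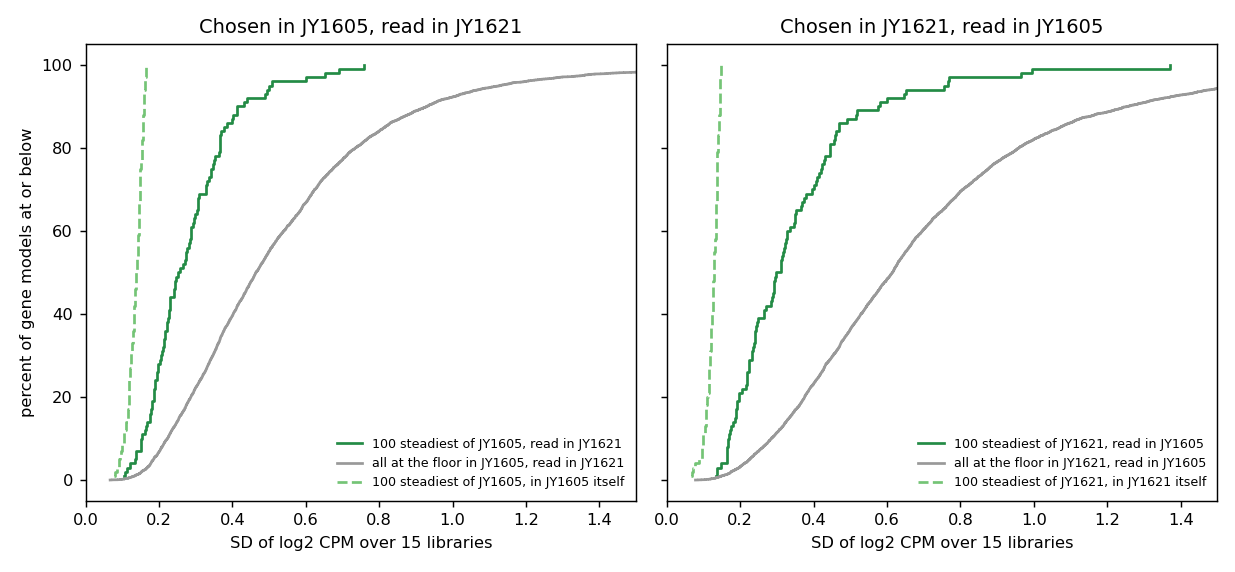
Cumulative percent of transcripts (vertical axis) by their SD of log2 CPM over 15 libraries (horizontal axis, shown to 1.5). Left, the 100 steadiest of JY1605 read in JY1621 (dark green) beside all transcripts at the floor in JY1605 (grey) and the list in its own genotype (dashed); right, the converse. The dark green curves, with medians of 0.255 and 0.304, lie left of the grey ones, at 0.464 and 0.615, and right of the dashed ones.

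The lists were then tested for temperature in the genotype that had not chosen them. Of the JY1605 list, 3 of 100 were called between 8 °C and 25 °C in JY1621 after 8 h, 1 higher and 2 lower at 8 °C, where 29.1% of the transcripts at the floor were called and 36.1% of all tested (edgeR quasi-likelihood F-test over the 15 libraries, adjusted p under 0.05 and a log2 fold change of at least 1). After 36 h 2 of 100 were called, both higher at 8 °C, where 21.7% and 34.9% were, and 1 of 100 was called without replicate 2 at 36 h and 25 °C. Of the JY1621 list, 2 of 100 were called in JY1605 after 8 h, where 30.4% at the floor and 41.9% of all tested were. With library size scaling, the 8 h comparison had 8 calls of the JY1605 list in place of 3, and 12 of the JY1621 list in place of 2. With a floor of 50 CPM for the choice, the JY1621 list had 4 there. The shares at the floor and of all tested called with library size scaling were not counted.

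After 36 h 18 of 100 of the JY1621 list were called between temperatures in JY1605, 17 of them higher at 8 °C, where 50.1% at the floor and 62.5% of all tested were called and 34.9% at the floor were higher. Against dry seeds, 19 were called in 36 h seeds kept at 25 °C, 18 of them lower, where 43.9% at the floor and 62.5% of all tested were called and 31.2% at the floor were lower. Of the 18 lower ones, 12 were also among those higher at 8 °C, and both comparisons rest on the same 36 h libraries at 25 °C. With a floor of 50 CPM for the choice, these counts were 30 between temperatures and 32 against dry seeds. Of the 18 lower ones, 4 were on A03, which held 15 of the list, 2 on A05, which held 4, and 2 on C01, which held 5, and each other chromosome had at most 1. Over the whole list, log2 fold changes at 36 h and 25 °C against dry seeds ran from -2.50 to 1.04 in JY1605, with a median of -0.39.

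Against dry seeds, the JY1605 list had in JY1621 0 of 100 calls in 8 h seeds kept at 8 °C, 5 in 8 h seeds kept at 25 °C, 2 in 36 h seeds kept at 8 °C and 7 in 36 h seeds kept at 25 °C, where 0.96%, 35.5%, 41.3% and 27.4% at the floor and 7.09%, 45.2%, 51.1% and 48% of all tested were called. The JY1621 list had in JY1605 0, 4 and 3 calls in 8 h seeds kept at 8 °C, 8 h at 25 °C and 36 h at 8 °C, where 1.74%, 36.8% and 41.3% at the floor and 3.37%, 46.2% and 51.1% of all tested were. In the comparisons with 0 calls, 30 and 38 of 100 had an unadjusted p under 0.05, where 35.2% and 25.9% of all tested did, and DESeq2's Wald test called 0 in both. The share of all tested called by DESeq2's test was not counted. Over the 6 comparisons, 91 of the JY1605 list and 74 of the JY1621 list had no call, as had 42% and 25.7% at the floor. Both lists were less abundant in the genotype that chose them than the transcripts at the floor, with medians of 35.5 and 42.1 CPM against 61.7 and 58.4 CPM, and the part of level in these shares was not tested. With library size scaling the JY1605 list had 12, 22 and 28 calls in 8 h seeds kept at 25 °C, 36 h at 8 °C and 36 h at 25 °C against dry seeds, and the JY1621 list 25 and 10 in 8 h seeds kept at 25 °C and 36 h at 8 °C. No share at the floor or of all tested was counted on that scale, so these counts are not read as particular to the lists. With a floor of 50 CPM for the choice, the JY1605 list had 4 calls in 36 h seeds kept at 8 °C, and the JY1621 list 2 in 8 h seeds kept at 25 °C and 1 in 36 h seeds kept at 8 °C.

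Of the 6 transcripts in both single-genotype lists, 3 are given here. BnaC03G0387000ZS and BnaC09G0276100ZS are among the 100 over all libraries as well, with SDs of 0.107 and 0.138 in JY1621 and 0.147 and 0.163 in JY1605. BnaA03G0232300ZS on A03 is not. It had SDs of 0.113 in JY1621 and 0.136 in JY1605, and 0.280 over all 30 libraries. Its libraries held 18.6 to 24.4 CPM in JY1621 and 25.6 to 34.6 CPM in JY1605, so that the genotypes did not overlap while each kept a narrow range over germination and temperature.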

How the data were processed

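RNA from whole seeds was sequenced in 30 libraries. The deposited values are raw counts per gene model, whole numbers whose totals differ between libraries. The tools named in the submitters' processing notes are featureCounts 2.0.6, HISAT2 2.2.1 and DESeq2 1.42.0. Build, strand setting and parameters: not given in the sources used here.

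Gene models were filtered with filterByExpr (57945 of 100919 kept, 14800 having no count) and scaled with TMM factors in edgeR 4.0.16 (R 4.3.3), and log2 CPM was computed with a prior count of 2. Fits used edgeR's robust quasi-likelihood F-test with Benjamini-Hochberg adjustment over all gene models tested, and a call needed an adjusted p under 0.05 and a log2 fold change of 1 or more either way. DESeq2 1.42.0 was an alternative. P-values measure only the spread between these libraries. The scripts were tested on simulated data. The members and lists were chosen with earlier results of these data known. The named transcripts are the 4 steadiest, those with the highest and lowest mean, ranks 99 to 102, the 2 with the largest and 2 with the most negative mean difference at 36 h, the steadiest pair, and 3 chosen by both genotypes alone; the lists of known reference and seed marker genes could not be used.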

Additional observations from a re-analysis of the deposited data

Results flagged for a closer look

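Of the named transcripts, 3 had all 8 °C libraries above all 25 °C libraries at 36 h in one genotype and below them in the other. This difference between genotypes was not tested, since the choice used these libraries. At 36 h, 10 of the 100 went opposite ways in this sense, where 7.69% of all tested gene models did.

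BnaC09G0261700ZS, the third steadiest, held 32.8, 29.5 and 30.5 CPM at 8 °C against 27.8, 27.2 and 24.1 CPM at 25 °C in JY1621, and 26.1, 23.3 and 25.4 against 31.8, 31.6 and 30.5 CPM in JY1605. Its 8 °C minus 25 °C difference was 0.23 in JY1621 and -0.33 in JY1605 (log2), 0.56 apart.

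BnaC09G0276100ZS held 52.1, 49.6 and 49.1 CPM at 8 °C against 62.6, 58.6 and 59.2 CPM at 25 °C in JY1621, and 48.1, 50 and 48.7 against 42.9, 45.7 and 42.3 CPM in JY1605. The difference in JY1621 minus that in JY1605 was -0.42 (log2).

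BnaC01G0062600ZS, next to last inside the list, held 65.1, 69.0 and 69.5 CPM at 8 °C against 60.1, 58.9 and 64.4 CPM at 25 °C in JY1621, and 53.1, 58.5 and 55.1 against 80.6, 79.4 and 73.4 CPM in JY1605. The difference in JY1621 minus that in JY1605 was 0.64 (log2).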

How the results depend on the processing

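Membership depended on the settings. Of the 100, 13 were chosen again with library size scaling, 46 with the median absolute deviation, 27 in JY1605 alone and 26 in JY1621 alone. With 1 library left out, 89 to 97 were. A floor of 10 CPM kept 63, as it only lets further transcripts into the same ranking. A floor of 50 CPM kept 20, which were all of the 100 at that level in every group, so this count follows from the floor. The median SD of the 100 was 0.321 with library size scaling and 0.192 to 0.199 with 1 library left out. With library size scaling, calls among the 100 numbered 6 in JY1621 at 36 h and 25 °C against dry seeds, and in JY1605 1 between temperatures at 8 h, and 18, 3 and 9 against dry seeds at 8 h and 25 °C, 36 h and 8 °C, and 36 h and 25 °C. They were 0 with any 1 library left out. For library size scaling, the share of all tested gene models called was not counted.

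For the lists read in the other genotype, library size scaling gave the JY1605 list 8 calls between temperatures at 8 h and 12, 22 and 28 against dry seeds at 8 h and 25 °C, 36 h and 8 °C, and 36 h and 25 °C, and the JY1621 list 12 between temperatures at 8 h and 25 and 10 at 8 h and 25 °C and 36 h and 8 °C. A floor of 50 CPM gave the JY1605 list 4 at 36 h and 8 °C, and the JY1621 list 4 and 30 between temperatures at 8 h and 36 h and 2, 1 and 32 against dry seeds at 8 h and 25 °C, 36 h and 8 °C, and 36 h and 25 °C. The cause was not tested, and the share of all tested called with library size scaling was not counted. With 1 library left out, the JY1605 list had 2 to 4 and 1 to 2 calls between temperatures at 8 h and 36 h, and 0, 4 to 5, 2 to 3 and 6 to 7 against dry seeds at 8 h and 8 °C, 8 h and 25 °C, 36 h and 8 °C, and 36 h and 25 °C. The JY1621 list had 2 to 3 and 16 to 18, and 0, 3 to 5, 2 to 3 and 17 to 20.

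Deviations of libraries with the same replicate number correlated at -0.108 to 0.173, with a median of 0.00621, against a median of -0.00438 for other numbers. These values alone cannot settle whether replicate numbers pair libraries. With the replicate block, the JY1605 list had 3 and 2 calls between temperatures and 0, 5, 2 and 7 against dry seeds, the JY1621 list 2 and 17, and 0, 4, 3 and 19, and the 100 had 0. Shares of all tested called were not counted with the replicate block or with a library left out.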
